A study of Homo sapiens with 54 samples.

Results

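The response of A549 cells carrying a USP18 expression vector to the compound coded CP14 at 2.5 µM was measured across genes, in 3 treated and 3 vehicle libraries out of the 54 of the series. The 6 libraries were chosen by their column labels, and the genes by a filter on low counts, which 15827 of the 58870 genes in the table passed. A549 is a human lung cancer cell line, and the cells carried the vector with USP18 or an insertless (empty) one. The labels do not say how many populations were engineered with each vector, and each is treated here as 1. Cells were treated for 48 h with the solvent DMSO (vehicle) or with a coded compound, and RNA was sequenced with 3 replicates per group. Beside the 6 libraries, the text uses CP14 at 1 and 5 µM and the compound coded CP18 at 2.5 µM in cells with USP18 (USP18 cells), and vehicle and 2.5 µM CP14 in cells with the insertless vector (empty-vector cells). The labels do not say whether replicates were separate cultures; where they were not, the p-values measure only the spread between samples. The labels describe capture of poly(A) RNA and stranded libraries, whereas the methods speak of total RNA cleared of ribosomal RNA.

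The vehicle libraries of USP18 cells held 20010352, 20369238 and 20815786 expected counts and the treated ones 20940790, 21931698 and 18284060. Levels are given as CPM, counts in a library relative to its total, with edgeR's TMM scaling over all 54 libraries, and SE stands for the standard error of a log2 fold change. In leave-one-out fits, 1 of the 6 libraries compared was absent each time. Where each library of a group has at most 3 counts of a gene, the group is at its detection limit, and folds against it are bounds computed from 3 counts per library. Floors and bounds cover counting error only, whereas an SE comes from the fit and also holds the spread between libraries. In bulk RNA, fewer cells with a transcript and less of it per cell cannot be told apart. USP18 itself (ENSG00000184979.9, chromosome 22 from 18150118 to 18177397), the ISG15-specific protease that the vector encodes, was at 1302, 1292 and 1328 CPM with vehicle and 1185, 1197 and 1175 CPM with CP14, against 10.6, 10.7 and 11.1 CPM in empty-vector cells with vehicle. The labels therefore match the vector's gene in every one of these libraries. The epithelial marker list summed to 8673, 8754 and 8927 CPM with vehicle and 8377, 8335 and 8443 CPM with CP14, with KRT8 as its most abundant gene. The surfactant genes SFTPA1 and SFTPB had 0 counts in all 6 libraries, so that these markers of alveolar type II cells were absent, and so were CDKN2A and CDKN2B, which A549 cells are known to have lost. The endothelial list, with 0 of 5 genes tested, reached at most 0.547 CPM in a library.

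USP18 removes the ubiquitin-like protein ISG15 from its targets and, apart from that activity, restrains signalling by the type I interferon receptor. The labels give CP14 by its code alone, and the text of the paper does not use the codes. No structure or target is therefore assigned to it here, and which compound it is was not tested. Some of the genes described below are known from responses to signals and stress. The transcription factor ATF4 raises amino acid synthesis when translation is restrained, the sterol-sensing factor SREBP controls cholesterol and fatty acid synthesis, and cyclic AMP can induce orphan nuclear receptors within minutes to hours.

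A gene is called changed here at an adjusted p under 0.05 and an absolute log2 fold change over 1, and 315 genes met this (1.99% of those tested). The 214 called higher (1.35%) were mostly scarce, with a median of 0.728 CPM in vehicle, against 20.5 CPM over all genes tested, and 30 of them averaged at least 10 CPM. The 101 called lower (0.638%) had a median of 1.66 CPM in vehicle, and 21 averaged at least 10 CPM. Changes past a log2 size of 2 numbered 40 upward and 16 downward. At an adjusted p under 0.05 with no limit on size, 2586 genes (16.3%) were higher and 2591 (16.4%) lower, so that most of these differences were small; the near-equal numbers are not a result, since the scaling centres the fold changes. Treated and vehicle libraries did not overlap for 296 of the 315 called genes, and for 7145 of all genes tested (45.1%). Long non-coding RNAs made up 62 of the called genes, 36 higher and 26 lower, which is 19.7% of the calls and 9.51% of the genes tested. At the fold threshold, PTK6 (1.00) lay just inside and AC245452.1 (0.998) just outside on the upper side, and on the lower side SYNGR4, which fell by 1.00, just inside and GADD45B (-0.99) just outside. Treated replicate 1 lay farther from vehicle than the other treated libraries. It held the most distant treated value for 116 of 203 called rises without overlap and 54 of 93 such falls, much as over all genes without overlap (53.4% of those higher and 55.3% of those lower), and without it 260 genes were called.

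**Figure D1:**
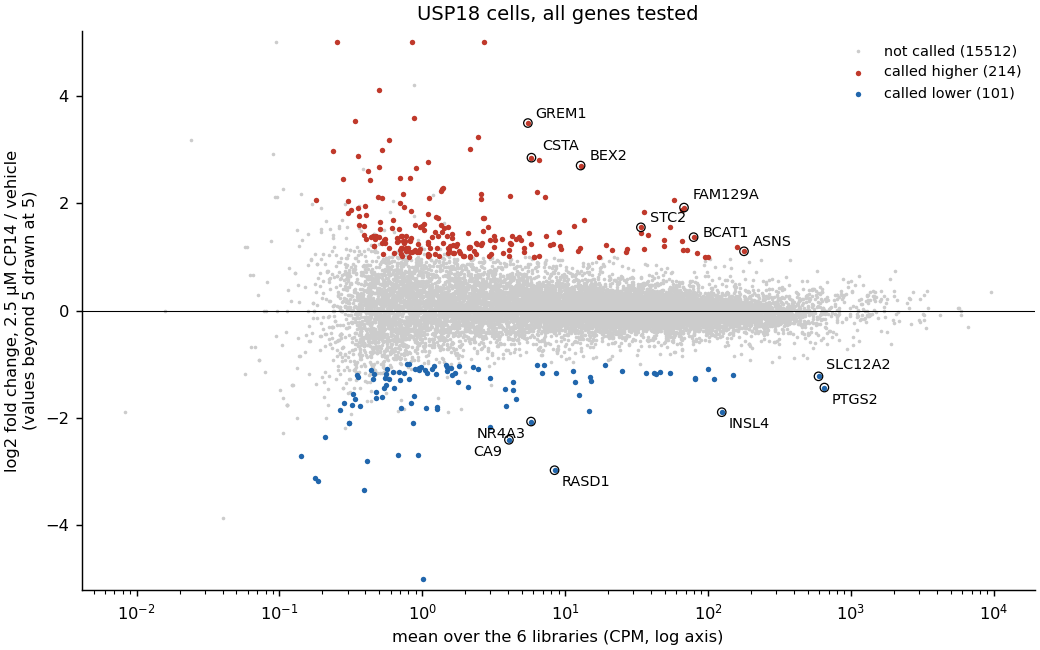
Log2 fold change of 2.5 µM CP14 against vehicle in USP18 cells, plotted over the mean CPM of the 6 libraries (log axis), with 1 point per gene tested. The 214 genes called higher are red and the 101 called lower are blue, and the 13 named genes, among them PTGS2 at -1.43 and GREM1 at 3.49, are ringed.

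Among the genes that fell were RASD1, PTGS2 and INSL4. RASD1 (ENSG00000108551.5, chromosome 17 from 17494437 to 17496395), a Ras-like protein named for its induction by dexamethasone, was at 14.1, 14.4 and 16.3 CPM with vehicle and 1.74, 1.67 and 2.32 CPM with CP14. Every treated library lay far below every vehicle library, a log2 fold change of -2.97 (SE 0.19, adjusted p = 3.2e-09). PTGS2 (ENSG00000073756.12, chromosome 1 from 186671791 to 186680922) encodes cyclooxygenase-2, which makes prostaglandins, and fell from 943, 932 and 982 CPM to 298, 354 and 406 CPM. It was the most abundant of the called genes that fell, its groups did not overlap, and the log2 fold change was -1.43 (SE 0.07, adjusted p = 3.3e-10). INSL4 (ENSG00000120211.4, chromosome 9 from 5231419 to 5235304), an insulin-like peptide gene first known from placenta, went from 196, 195 and 199 CPM to 40.9, 53.1 and 65.5 CPM. Its vehicle libraries were nearly equal while the treated ones spread, with replicate 1 the lowest, and the change was -1.89 (SE 0.10, adjusted p = 6.0e-10).

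All 3 NR4A orphan nuclear receptors fell. NR4A3 (ENSG00000119508.18, chromosome 9 from 99821855 to 99866891) was at 8.51, 8.54 and 11.0 CPM with vehicle and 2.17, 2.62 and 1.84 CPM with CP14, groups that did not overlap, a log2 change of -2.07 (SE 0.18, adjusted p = 7.3e-08). For NR4A1 (ENSG00000123358.20, chromosome 12 from 52022832 to 52059507) the libraries held 151, 157 and 158 CPM and 59.1, 59.5 and 74.7 CPM, again apart (-1.27, adjusted p = 3.0e-09), and NR4A2 also fell (-1.86, adjusted p = 6.4e-09). SSTR2 (ENSG00000180616.9, chromosome 17 from 73165010 to 73176633), a receptor for the peptide hormone somatostatin, was at 5.32, 3.95 and 5.45 CPM and then 1.22, 0.950 and 1.08 CPM. Its treated libraries all lay below its vehicle libraries (-2.17, adjusted p = 3.7e-05). RASGEF1B, an exchange factor for Ras-family proteins (-1.79, adjusted p = 2.0e-04), and CACNB2, a subunit of voltage-gated calcium channels (-1.84, adjusted p = 1.2e-04), fell from means of 1.97 and 1.98 CPM.

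Some of the other named falls encode proteins of the cell surface. SLC12A2, which encodes the sodium, potassium and chloride cotransporter NKCC1, was at 844, 817 and 833 CPM with vehicle and 289, 360.1 and 419 CPM with CP14 (-1.23, SE 0.08, adjusted p = 5.0e-09). SLC2A3, the glucose transporter GLUT3, had 210.0, 207 and 205 CPM and 77.3, 93.1 and 99.6 CPM (-1.21, SE 0.06, adjusted p = 2.0e-10). Neither gene's groups overlapped, and GLUT3 had the smallest adjusted p of the called genes that fell. SCNN1G, a subunit of the epithelial sodium channel, fell from a mean of 16.6 CPM (-1.32, adjusted p = 7.0e-06). CA9, a carbonic anhydrase at the cell surface that low oxygen is known to induce, went from 7.76, 5.81 and 6.84 CPM to 0.753, 1.67 and 1.40 CPM (-2.41, adjusted p = 3.5e-08), with groups apart. Among other falls were TENT5A, a poly(A) polymerase (-1.26, adjusted p = 9.3e-10), the imprinted long non-coding RNA H19 (-1.27, adjusted p = 2.3e-09) and NEB, the gene of the muscle protein nebulin (-1.64, adjusted p = 7.5e-07). TAF11L11 (-1.82, adjusted p = 2.7e-04) and AC002996.1 (-1.79, adjusted p = 0.0048, but 0.059 in a fit of all 54 libraries), which have no known role, fell from means of 1.66 and 5.91 CPM.

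**Figure D2:**
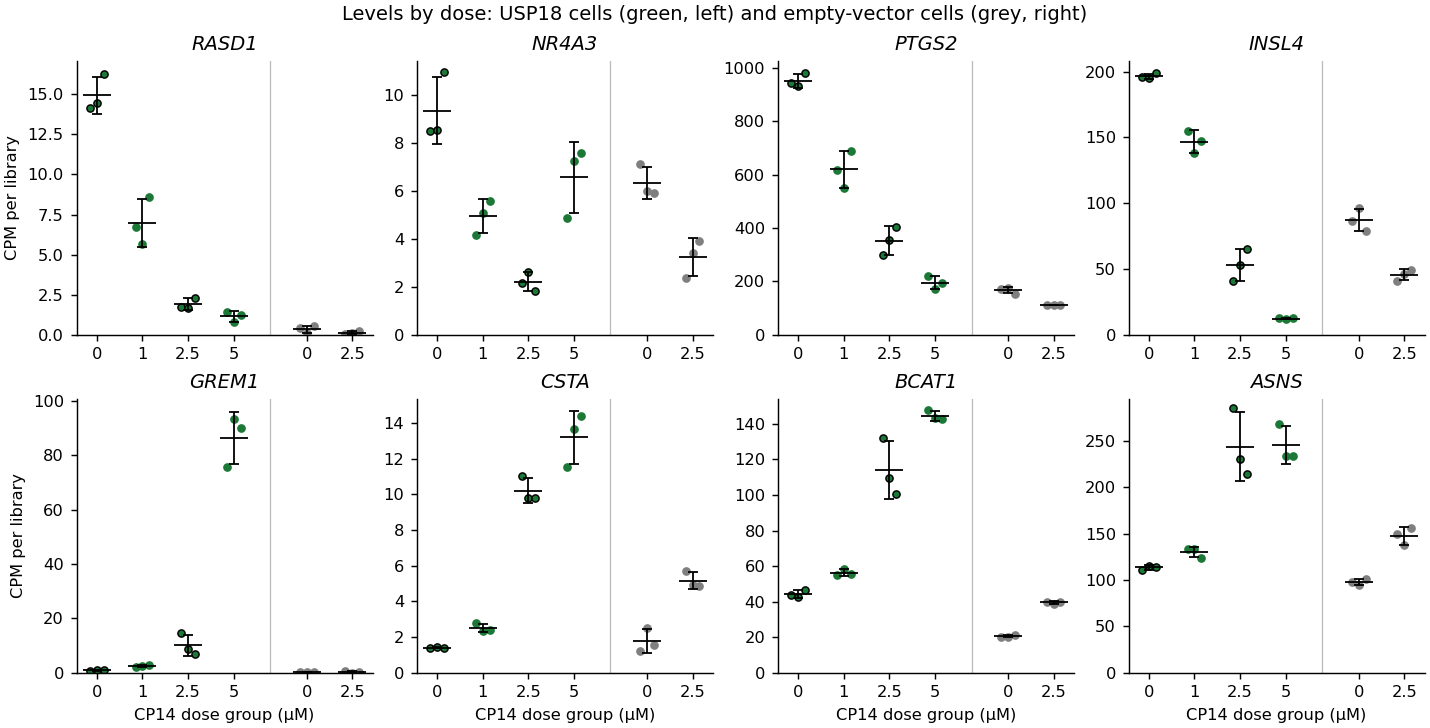
CPM in each library (points), with the group mean and SD (n = 3), for 4 genes that fell and 4 that rose, over CP14 dose groups in USP18 cells (green, evenly spaced) and empty-vector cells (grey); vehicle and 2.5 µM CP14 in USP18 cells have dark edges. INSL4 fell at each dose step, to a mean of 12.3 CPM at 5 µM, whereas NR4A3 was at 2.21 CPM at 2.5 µM and 6.56 CPM at 5 µM.

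Promoters of 18 named falling genes were searched on both strands, since some genes of that set are known targets of cyclic AMP signalling. No fixed list of such targets was tested. A RefSeq table of windows from 250 bases before to 50 after each start (GRCh38.p14) held 14 of the 18 falling genes searched, in 18 windows, and NR4A2 is not in it. The full cyclic AMP response element TGACGTCA was in 0 of the 18 windows and in 1.85% of all 35116 windows. Its core TGACG was in 9 windows of 8 genes, 50.0% of the windows, against 24.6% of all windows. This core was added after the changes were seen, it can overlap the antioxidant response element core TGACNNNGC, and a match is a description and not a known site. The core was also in both windows of ASNS, which rose. Of the others searched, the AP-1 site TGANTCA was in 1 of the 18 windows (5.56%, against 7.71% of all), TGACNNNGC in 2 (11.1%, 13.3%), the interferon response core GAAANNGAA in 3 (16.7%, 8.11%) and the TATA box TATAAA in 4 (22.2%, 11.5%), so that the share was about double that of all windows for the latter pair as for TGACG. The 250 bases before the RefSeq start are printed for 4 falling genes with the core, in capitals on whichever strand it lies, from NR4A3 (chr9:99821635-99821884, plus strand), RASD1 (chr17:17496396-17496645, minus strand), PTGS2 (chr1:186680424-186680673, minus strand) and SSTR2 (chr17:73164760-73165009, plus strand).
NR4A3: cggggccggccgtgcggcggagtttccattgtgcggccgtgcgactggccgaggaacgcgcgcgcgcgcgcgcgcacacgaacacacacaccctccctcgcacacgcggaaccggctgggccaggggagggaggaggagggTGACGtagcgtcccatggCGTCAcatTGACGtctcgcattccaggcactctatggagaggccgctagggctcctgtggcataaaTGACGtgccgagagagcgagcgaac
RASD1: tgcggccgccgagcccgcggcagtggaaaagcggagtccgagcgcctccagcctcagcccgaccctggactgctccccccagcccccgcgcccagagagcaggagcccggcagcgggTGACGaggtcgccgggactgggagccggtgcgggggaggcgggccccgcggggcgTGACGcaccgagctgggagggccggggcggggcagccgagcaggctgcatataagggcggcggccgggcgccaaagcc
PTGS2: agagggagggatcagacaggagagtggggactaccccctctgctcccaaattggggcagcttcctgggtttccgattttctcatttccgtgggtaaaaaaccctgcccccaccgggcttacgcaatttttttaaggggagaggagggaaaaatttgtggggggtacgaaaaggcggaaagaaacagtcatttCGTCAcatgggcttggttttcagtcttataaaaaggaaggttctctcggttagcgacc
SSTR2: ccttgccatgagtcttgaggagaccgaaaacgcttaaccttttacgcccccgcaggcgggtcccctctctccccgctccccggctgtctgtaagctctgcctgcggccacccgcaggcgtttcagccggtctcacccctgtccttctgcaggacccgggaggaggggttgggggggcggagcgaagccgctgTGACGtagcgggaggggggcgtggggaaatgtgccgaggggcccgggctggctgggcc
In NR4A3 the core starts 109, 91, 83 and 25 bases before the RefSeq start, in RASD1 133 and 78 bases, and in both PTGS2 and SSTR2 58 bases. The one at 109 in NR4A3 and the one in SSTR2 overlap a TGACNNNGC match. The starts used for NR4A3 and PTGS2 lie within the spans given above for these genes.

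Among the genes that rose were GREM1, FAM129A and LAMP3. GREM1 (ENSG00000166923.11, chromosome 15 from 32718004 to 32745106), a secreted inhibitor of bone morphogenetic proteins, was at 0.697, 0.878 and 1.10 CPM with vehicle and 14.5, 8.87 and 6.91 CPM with CP14. The groups were far apart although treated replicate 1 was well above the other treated libraries (3.49, SE 0.32, adjusted p = 1.8e-07). FAM129A, known from cell stress responses, had 28.9, 30.1 and 26.5 CPM and 137, 100.5 and 84.9 CPM, also apart (1.92, SE 0.12, adjusted p = 3.2e-09). LAMP3 (ENSG00000078081.8, chromosome 3 from 183122215 to 183163839), a lysosomal membrane protein that type II cells also make, went from 1.19, 1.76 and 1.91 CPM to 16.1, 8.73 and 9.45 CPM (2.81, SE 0.25, adjusted p = 1.0e-07). It was the called member of the type II marker list, of which 3 of 9 genes were tested. ABCA3, a lipid transporter, also rose (0.24, adjusted p = 0.0015), while SFTPA1 and SFTPB stayed at 0 counts as given above.

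TNFRSF9, the receptor 4-1BB, rose from 0.597, 0.439 and 0.383 CPM to 3.11, 2.13 and 1.73 CPM, a low level with groups that did not overlap (2.29, adjusted p = 8.3e-05). TM6SF1 was likewise scarce with vehicle, at 0.249, 0.585 and 0.574 CPM, and reached 6.40, 4.03 and 2.97 CPM (3.23, adjusted p = 1.6e-06). ANO1, a calcium-activated chloride channel (2.22, adjusted p = 2.7e-04), LCN2, an iron-scavenging lipocalin (2.27, adjusted p = 1.1e-05), and INSYN2B (2.18, adjusted p = 1.9e-06) rose from vehicle means under 1 CPM. So did AC008581.2, without a known role (3.00, adjusted p = 4.9e-05), whose adjusted p was 0.051 in a fit of all 54 libraries. Of the more abundant rises, BCAT1, the cytosolic aminotransferase for branched-chain amino acids, was at 43.5, 42.8 and 46.7 CPM and 132, 109.7 and 101 CPM and had the smallest adjusted p of the called genes that rose (1.37, SE 0.07, adjusted p = 6.0e-10). The transcription factor ETS1 (1.30, adjusted p = 3.0e-09), the small nucleolar RNA host gene ZFAS1 (1.18, adjusted p = 2.4e-09), the keratin KRT80 (1.08, adjusted p = 5.1e-09) and the plasminogen activator PLAU (1.00, adjusted p = 6.7e-09) rose from means of 28.3, 97.9, 53.7 and 63.8 CPM.

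Genes known to respond to ATF4 rose together. Of 35 listed, 34 were tested, 29 had an adjusted p under 0.05 and were higher and 2 were lower, CTH and SLC38A2, which were named after their values were seen. The median log2 fold change was 0.45, against 0.01 over all genes tested, and 6 members were called, all higher. ASNS (ENSG00000070669.17, chromosome 7 from 97851677 to 97872542), asparagine synthetase, was at 111, 116 and 114 CPM with vehicle and 286, 230.4 and 215 CPM with CP14. The groups did not overlap, with treated replicate 1 highest (1.10, SE 0.07, adjusted p = 6.1e-09). TRIB3, a pseudokinase that ATF4 induces, had 64.5, 69.1 and 66.1 CPM and 170.1, 125 and 105 CPM, and its change of 1.01 (SE 0.11, adjusted p = 1.2e-06) lies at the fold threshold. STC2, a secreted glycoprotein, rose from 17.1, 18.4 and 16.4 CPM to 66.8, 47.3 and 37.3 CPM (1.55, SE 0.15, adjusted p = 3.2e-07), also with replicate 1 above the others. PCK2, the mitochondrial phosphoenolpyruvate carboxykinase (1.12, adjusted p = 6.3e-09), ALDH1L2, a mitochondrial folate enzyme (1.41, adjusted p = 3.7e-09), and the peptide hormone gene ADM2 (1.44, adjusted p = 8.8e-06) were the other called members. Over the alternatives and leave-one-out fits tried, the list's median ran from 0.28 to 0.51. The ASNS promoter is shown because ATF4 is known to act at a C/EBP-ATF element in it; the element's letters TGATGNAA, added after the changes were seen and found in 3.62% of all windows, are in capitals in the 250 bases before a RefSeq start, at chr7:97872409-97872658 (minus strand), 68 bases before that start, which lies within the span of the gene given above.
ASNS: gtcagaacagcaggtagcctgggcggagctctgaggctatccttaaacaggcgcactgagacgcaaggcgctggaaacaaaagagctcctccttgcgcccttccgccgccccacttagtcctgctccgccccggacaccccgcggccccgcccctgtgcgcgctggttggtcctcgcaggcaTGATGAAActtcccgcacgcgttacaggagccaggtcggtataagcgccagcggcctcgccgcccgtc
Of the 6 called members, 5 were in the promoter table, and ALDH1L2 is not in it. The element was in 0 windows of PCK2, TRIB3, STC2 and ADM2, and the second window of ASNS also had 0.

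Cytosolic ribosomal protein genes also rose nearly as a group, each by a small amount. Of 79 tested, 76 were higher at an adjusted p under 0.05 and 0 were lower, with a median of 0.25; 0 were called, since none reached the fold threshold. Their summed share of all counts was 6.16, 6.27 and 6.26% in the vehicle libraries and 7.82, 7.55 and 7.38% in the treated ones. The groups do not overlap, and replicate 1 is again the treated library farthest from vehicle. RPL12 had the largest change of the list, from 708, 698 and 711 CPM to 1113, 1065 and 1011 CPM (0.59, SE 0.03, adjusted p = 6.0e-10), and RPS18 (0.53, adjusted p = 6.2e-09) and RPL26 (0.47, adjusted p = 4.2e-08) were also among the larger ones. Among 15 tested mitochondrially encoded genes, 7 were higher and 0 lower, led by subunits of respiratory complex I, MT-ND2 (0.73, adjusted p = 7.9e-07), MT-ND1 (0.64, adjusted p = 5.7e-06), MT-ND4L (0.56, adjusted p = 8.7e-06) and MT-ND6 (0.47, adjusted p = 1.4e-04). The median of that list was 0.06, and its sign turned over the alternatives tried. Its members' share of all counts was 3.25, 3.03 and 2.68% in vehicle libraries and 3.21, 3.45 and 3.26% in treated ones, so that the groups overlap.

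**Figure D3:**
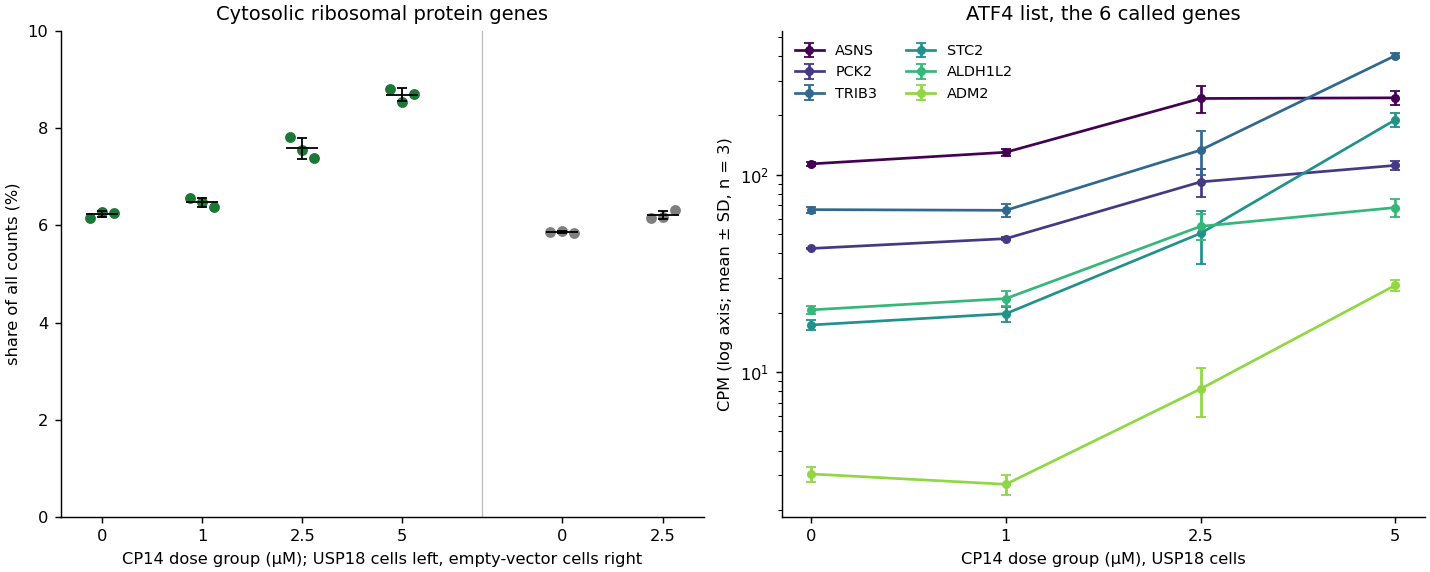
Left, the percent of all counts in cytosolic ribosomal protein genes in each library (points, with mean and SD, n = 3), over evenly spaced CP14 dose groups; right, the mean CPM and SD (n = 3, log axis) of the 6 called ATF4 list members in USP18 cells by dose group. The ribosomal share in USP18 cells at 2.5 µM (7.38% to 7.82%) lay between those at 1 µM and 5 µM.

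Sterol and fatty acid synthesis genes fell. All 31 listed were tested, 29 were lower at an adjusted p under 0.05 and 1 higher (PMVK), with a median of -0.41, and 0 were called. Among the larger changes were those of STARD4, a sterol carrier (-0.67, adjusted p = 1.6e-06), ACAT2 (-0.65, adjusted p = 3.7e-06) and SCD, the desaturase that makes monounsaturated fatty acids (-0.64, adjusted p = 4.8e-08). SCD was abundant, at 1243, 1257 and 1279.8 CPM with vehicle and 709.9, 832 and 880.0 CPM with CP14, without overlap. Endoplasmic reticulum chaperones and unfolded protein response genes moved the same way, with 13 of 19 lower, 0 higher and a median of -0.25. Here XBP1, a transcription factor of that response (-0.85, adjusted p = 5.0e-10), and the chaperones CALR (-0.55, adjusted p = 7.6e-09), SDF2L1 (-0.51, adjusted p = 6.1e-05) and PDIA4 (-0.49, adjusted p = 3.6e-08) changed most.

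In the hypoxia and glycolysis list, 22 of 32 genes were lower and 2 higher (PFKP and ENO2), with a median of -0.24 and 2 called, CA9 and SLC2A3. ANKRD37 (-0.90, adjusted p = 0.019) and the aldolase gene ALDOC (-0.83, adjusted p = 0.0028) had the next largest changes. Of 25 genes typical of liver and endoderm, some of which A549 cells are known to express, 16 were tested, 11 were lower and 0 higher, with a median of -0.29. The fibrinogen chains FGA (-0.95, adjusted p = 5.0e-08) and FGB (-0.87, adjusted p = 6.1e-07) and CPS1, a urea cycle enzyme (-0.88, adjusted p = 6.1e-09), were abundant members that fell, and transferrin, TF, gave 7, 9 and 15 counts under vehicle but 1, 3 and 3 under CP14, at least 3.43-fold lower. Targets of the oxidant-sensing factor NRF2 were divided, with 7 of 32 higher, 15 lower and a median of -0.06. GPX2, a glutathione peroxidase (-0.69, adjusted p = 3.2e-07), OSGIN1 (-0.48, adjusted p = 9.2e-07) and TKT, transketolase (-0.35, adjusted p = 1.2e-06), fell, and the export pump ABCC3 rose (0.42, adjusted p = 6.0e-08). Among 25 lysosome and autophagy genes, 11 were lower and 2 higher (SQSTM1 and CTSL, the latter over the threshold in 1 of the 6 leave-one-out fits), with a median of -0.10; the autophagy receptor SQSTM1 rose from a mean of 814 to 1186 CPM (0.54, adjusted p = 7.5e-06), while the lysosomal hydrolase GLA (-0.43, adjusted p = 5.2e-07) and the membrane protein LAMP1 (-0.21, adjusted p = 6.0e-05) fell.

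**Figure D4:**
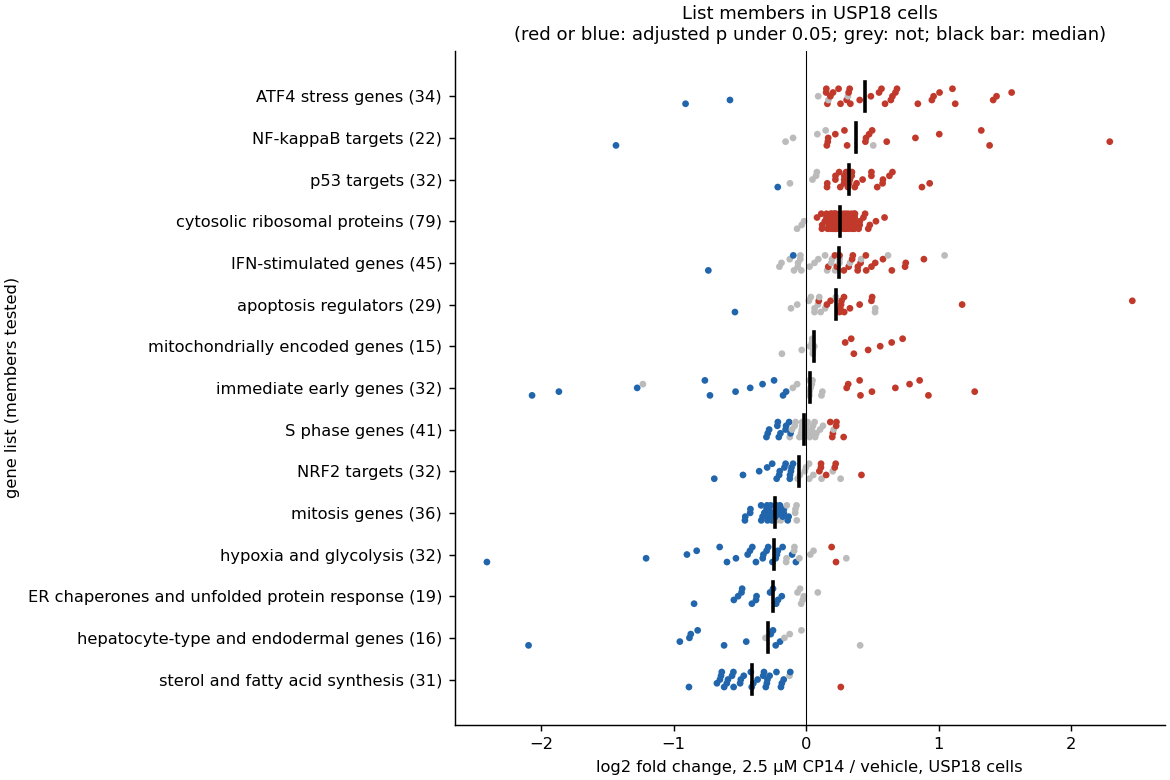
Log2 fold change of each tested member of 15 gene lists, 2.5 µM CP14 against vehicle in USP18 cells, 1 point per gene, coloured where the adjusted p is under 0.05, with the list's median as a black bar and the number of members tested in parentheses. The ATF4 list has the highest median of those drawn (0.45) and the sterol list the lowest (-0.41).

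Most mitosis genes were slightly lower. Of 36 tested, 29 were lower at an adjusted p under 0.05 and 0 higher, with a median of -0.24 and 0 called. AURKA, a spindle kinase, was at 169, 175 and 176 CPM with vehicle and 116, 129 and 133 CPM with CP14 (-0.46, SE 0.04, adjusted p = 1.0e-07). These libraries did not overlap, and PTTG1, ECT2 and PLK1 had changes of -0.46, -0.42 and -0.42. S phase genes were mixed, with 6 of 41 higher and 11 lower, and their median of -0.02 changed sign over the alternatives tried; TK1 (-0.30, adjusted p = 1.2e-05) and POLE (-0.28, adjusted p = 1.4e-05) fell and UHRF1 rose (0.28, adjusted p = 1.8e-05). Among 29 tested replication-dependent histone genes, 1 was higher, HIST1H2AC (0.22, adjusted p = 0.042), and 3 lower, HIST1H3H (-0.71, adjusted p = 0.026), HIST1H4H (-0.70, adjusted p = 0.0061) and HIST2H2BD (-0.46, adjusted p = 0.018), with a median of -0.05. Their messages carry no poly(A) tail.

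Targets of p53 were higher in 27 of 32 tested and lower in 1 (CCNG1), with a median of 0.32 and 0 called. SPATA18, which acts in mitochondrial quality control (0.93, adjusted p = 1.8e-04), GADD45A, a stress sensor (0.87, adjusted p = 1.8e-05), SESN2 (0.65, adjusted p = 7.7e-04) and the tetraspanin CD82 (0.63, adjusted p = 0.0043) changed most. GADD45A was at 12.3, 15.5 and 11.4 CPM with vehicle and 29.3, 21.9 and 20.3 CPM with CP14. SESN2, which ATF4 also induces, had 14.5, 16.1 and 17.2 CPM and 32.6, 22.3 and 19.8 CPM, and for both genes the groups were apart. Of 29 apoptosis regulators tested, 15 were higher and 1 lower, with a median of 0.22. The called members were BCL2A1, which opposes cell death and went from 4, 5 and 4 counts to 33, 26 and 15 (2.46, adjusted p = 2.7e-04), and HRK, which promotes it (1.18, adjusted p = 6.1e-04). BIRC3, an inhibitor of apoptosis, rose (0.50, adjusted p = 4.8e-07) and the initiator caspase CASP9 fell (-0.54, adjusted p = 1.0e-04).

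NF-kappaB targets were higher in 16 of 22 tested members, with PTGS2 the 1 that was lower, and a median of 0.38. Beside TNFRSF9, the called rises were TRAF1, an adaptor of such receptors (1.32, adjusted p = 2.2e-05), the chemokine gene CCL2 (1.38, adjusted p = 3.3e-04) and the adhesion molecule ICAM1 (1.00, adjusted p = 0.014). ICAM1 was scarce, at 1.39, 1.32 and 1.63 CPM and 3.34, 3.08 and 2.27 CPM, and was no longer called in 4 of the 6 leave-one-out fits (adjusted p up to 0.067). Interferon-stimulated genes numbered 45 tested of 58, 20 of them higher and 2 lower, with a median of 0.25 and 0 called. SAMD9, an antiviral protein, rose from 10.3, 9.86 and 8.94 CPM to 16.5, 16.8 and 15.4 CPM (0.75, adjusted p = 3.4e-06), and OAS1, a synthetase that senses foreign RNA, fell from 40.4, 41.9 and 39.4 CPM to 21.2, 25.9 and 25.9 CPM (-0.74, adjusted p = 4.5e-07), each without overlap. MX1 (0.89, adjusted p = 0.025) and IFIH1 (0.75, adjusted p = 0.028) were low in counts and each missed the threshold in 3 of the 6 leave-one-out fits, with an adjusted p of up to 0.13 and 0.14 over the alternatives. In antigen presentation by MHC class I, 7 of 15 genes were higher and TAPBP lower, with a median of 0.25. Among members with an adjusted p under 0.05, the largest changes were in the proteasome subunits PSMB8 (0.74, adjusted p = 9.9e-06) and PSMB10 (0.46, adjusted p = 0.0026), the peptidase ERAP1 (0.55, adjusted p = 2.2e-06) and the transporter TAP2 (0.26, adjusted p = 0.0027). Of 9 genes of ISG15 conjugation, 4 were higher and 2 lower (median 0.25), among them the ligases TRIM25 (0.45, adjusted p = 6.3e-05), HERC5 (0.45, adjusted p = 0.0017) and HERC6 (0.32, adjusted p = 0.01). USP18 fell slightly (-0.14, adjusted p = 0.0041), and USP41, which resembles it closely enough to share its reads, also (-0.38, adjusted p = 0.0016).

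Genes that signals induce at once did not move together. Of 36 such immediate early genes, 32 were tested, 10 were higher and 11 lower, and the median of 0.03 changed sign over the alternatives tried. The called falls were the 3 NR4A genes, and the called rise was ARC, an effector of synaptic plasticity, with 7, 9 and 8 vehicle counts and 33, 14 and 12 treated counts (1.27, adjusted p = 0.031, over the threshold in 4 of the 6 leave-one-out fits, and up to 0.31 over the alternatives). EGR1, a zinc finger factor, went the other way from the NR4A genes, from 91.4, 93.6 and 98.7 CPM to 121, 110.4 and 119 CPM (0.31, adjusted p = 1.7e-04). Its groups did not overlap. PPP1R15A, which directs a phosphatase to the translation factor eIF2, rose as well (0.33, adjusted p = 0.0018).

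Epithelial-mesenchymal and TGF-beta genes were higher in 9 of 27 tested and lower in 4 (LTBP1, FN1, THBS1 and ITGA5), with a median of 0.02. LTBP1 and ITGA5 were over the threshold in 4 and 5 of the 6 leave-one-out fits. COL5A1, a collagen chain (0.82, adjusted p = 1.3e-05), and MMP2, a gelatinase (0.83, adjusted p = 3.8e-04), rose, and COL3A1, called on the fibroblast marker list of which 4 of 7 genes were tested, fell from 68, 66 and 70 to 30, 33 and 33 counts (-1.09, adjusted p = 0.0026). That list summed to 11.1, 10.1 and 11.2 CPM with vehicle and 7.30, 7.55 and 8.21 CPM with CP14, its most abundant gene was COL1A1, and DCN had 0 counts in all 6 libraries. Squamous differentiation genes had 5 higher and 1 lower among 12 tested of 30, with a median of 0.41, or 0.23 with members at the limit of detection set to their bounds. CSTA, a protease inhibitor of cornified epithelia, rose from 1.39, 1.46 and 1.39 CPM to 11.0, 9.82 and 9.77 CPM, and KRT15 rose too (0.90, adjusted p = 0.003), whereas the squamous factor TP63 fell (-0.74, adjusted p = 0.019, with 2 of the 6 leave-one-out fits over the threshold, up to 0.097). Among 8 epithelial markers, KRT7 (0.58, adjusted p = 4.3e-08), KRT19 (0.60, adjusted p = 7.4e-07) and CLDN4 (0.79, adjusted p = 0.042) were higher and KRT8 (-0.33, adjusted p = 4.8e-07) and KRT18 lower. The leukocyte list had 2 of 7 genes tested, and 0 of these had an adjusted p under 0.05 in edgeR.

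Smaller lists gave these counts. Of 7 tested identifiers for targets of the aryl hydrocarbon receptor, 3 were higher and 1 lower (median 0.42), with AHRR counted under 2 identifiers. CYP1A1, its best-known target, rose from 4, 10 and 3 counts to 53, 31 and 34 (2.76, adjusted p = 3.3e-05), and CYP1B1 from 97.7, 91.8 and 99.6 CPM to 195, 188 and 179 CPM (0.96, adjusted p = 9.3e-11), neither with overlap. TIPARP, which feeds back on that receptor, rose (0.58, adjusted p = 1.8e-06), and the quinone reductase NQO1, at 1364 CPM the most abundant named target, fell slightly (-0.11, adjusted p = 0.0026). All 3 tested BEX genes were higher, BEX2 from 2.89, 3.71 and 3.68 CPM to 30.2, 20.3 and 16.1 CPM, BEX4 (1.33, adjusted p = 1.1e-04) and, by little, BEX3 (0.08, adjusted p = 0.038). Of 11 tubulins, TUBB2B (0.91, adjusted p = 2.6e-07) and TUBA1A (0.16, adjusted p = 0.0038) were higher and 4 lower, among them TUBA1B (-0.17, adjusted p = 7.2e-04) and TUBG1 (-0.20, adjusted p = 0.0018), with TUBB and TUBB4B the others; TUBB missed the threshold in 3 of the 6 leave-one-out fits (up to 0.11). In the heat shock protein list, 6 of 20 were higher and 2 lower (CHORDC1 and BAG3, each over the threshold in 2 of the 6 leave-one-out fits and CHORDC1 also with all 54 libraries), with a median of -0.02. Among members with an adjusted p under 0.05, HSPA8 (0.27, adjusted p = 3.2e-06), HSPA1A (0.27, adjusted p = 3.2e-06), HSPA4L (0.22, adjusted p = 6.3e-04) and DNAJA1 (0.18, adjusted p = 1.3e-04) changed most. Of 4 tested genes of zinc binding and export, the metallothionein MT2A rose (0.42, adjusted p = 7.6e-04) and the exporter SLC30A1 fell (-0.16, adjusted p = 0.0022).

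In empty-vector cells, whose vehicle and treated libraries are other ones, 2.5 µM CP14 changed 82 genes (0.518%), and 1117 (7.06%) were higher and 1278 (8.07%) lower at an adjusted p under 0.05. Leaving out 1 library at a time gave 47 to 103 called genes there. DESeq2 gave 35, a filter of at least 1 CPM gave 48 and no filter gave 158. Of the 214 genes called higher in USP18 cells, 177 (82.7%) were above vehicle there too, where 49.6% of all genes were, with a median of 0.48. Of the 101 called lower, 84 (83.2%) were below vehicle, where 50.4% of all genes were, with a median of -0.46. The direction was thus mostly shared and the size smaller, although these genes were chosen for a large change in USP18 cells. The interaction of treatment and vector, which tests the difference itself, passed an adjusted p of 0.05 for 1266 genes (8.00%), among them 57 of the called rises and 23 of the called falls. The called genes were chosen in libraries that the interaction also uses, so their share passing is not a separate result. In leave-one-out fits 802 to 1544 genes passed. Over all 1266 genes, 674 had fitted changes in the same direction and more in USP18 cells, 35 in the same direction and less, and 557 were of opposite sign.

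CA9 fell in both, from a mean of 10.5 to 6.20 CPM in empty-vector cells, and its interaction was -1.65 (SE 0.24, adjusted p = 5.2e-04). For PTGS2 the empty-vector libraries held 173, 173 and 155 CPM with vehicle and 111, 109.8 and 111 CPM with CP14, and the interaction was -0.84 (SE 0.10, adjusted p = 1.7e-04). PTGS2 was thus already lower in empty-vector cells without CP14, and so was RASD1, at 0.424, 0.112 and 0.516 CPM, where no interaction was detectable (-1.48, adjusted p = 0.24). NR4A1 fell in both, and its interaction did not pass the threshold (-0.29, adjusted p = 0.11), while that of NR4A3 did (-1.10, adjusted p = 0.011). SLC2A3 (-0.73, adjusted p = 6.5e-05), CYP1B1 (0.60, adjusted p = 1.8e-05), EGFR, the epidermal growth factor receptor (0.45, adjusted p = 6.6e-05), RPL12 (0.42, adjusted p = 6.5e-05) and SEMA3C, a secreted guidance factor (-0.40, adjusted p = 6.6e-05), had the smallest interaction p among genes with the larger absolute change in USP18 cells; SEMA3C fell there and rose slightly in empty-vector cells (0.12). EGR1 was the clearest case of opposite directions. It fell from 229, 247 and 228 CPM to 166, 159 and 145 CPM in empty-vector cells, whereas it rose in USP18 cells (0.31), and the interaction was 0.89 (SE 0.07, adjusted p = 3.9e-06). JUNB (interaction 0.61, adjusted p = 1.5e-05) and IER2 (0.42, adjusted p = 1.8e-04), other immediate early genes, fell in empty-vector cells (-0.56 and -0.39) and had changes of 0.05 and 0.03 in USP18 cells that did not pass the test. PPP1R15A (interaction 0.73, adjusted p = 4.8e-04) and the secreted proteoglycan gene TSKU (0.53, adjusted p = 5.5e-05) also rose in USP18 cells and fell in empty-vector cells.

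By list, the interaction was mostly of 1 sign in the groups that moved together. That sign is not a separate result, since the interaction uses the same USP18 libraries. Over all genes, 1231 of the 1266 interactions had the sign of the change in USP18 cells. The interaction was positive for 20 and negative for 1 of the ATF4 genes, whose median in empty-vector cells was 0.09. It was positive for 60 of 79 ribosomal protein genes, whose median there was 0.08. Mitosis genes had 24 negative and 0 positive, with a median of 0.02 in empty-vector cells, where 1 was higher (HMMR) and 2 lower (CDC25B and PTTG1). Sterol and fatty acid genes had 20 negative (empty-vector median -0.09), hypoxia and glycolysis 14 negative (-0.10), and chaperones of the endoplasmic reticulum 9 negative (-0.08), with 0 positive in each. For immediate early genes 13 were positive and 3 negative (NR4A2, NR4A3 and DUSP4), and the empty-vector median was -0.21. NF-kappaB targets had medians of 0.38 in USP18 and 0.27 in empty-vector cells, where 11 of 22 were higher and 1 lower, with 3 positive interactions (CXCL2, NFKBIA and TNFAIP2) against 1 negative (PTGS2). The interactions of NR4A2, CXCL2 and TNFAIP2 did not pass in 8, 10 and 1 of the 12 leave-one-out fits. Genes named from these lists after their values were seen are those given in parentheses without a value.

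**Figure D5:**
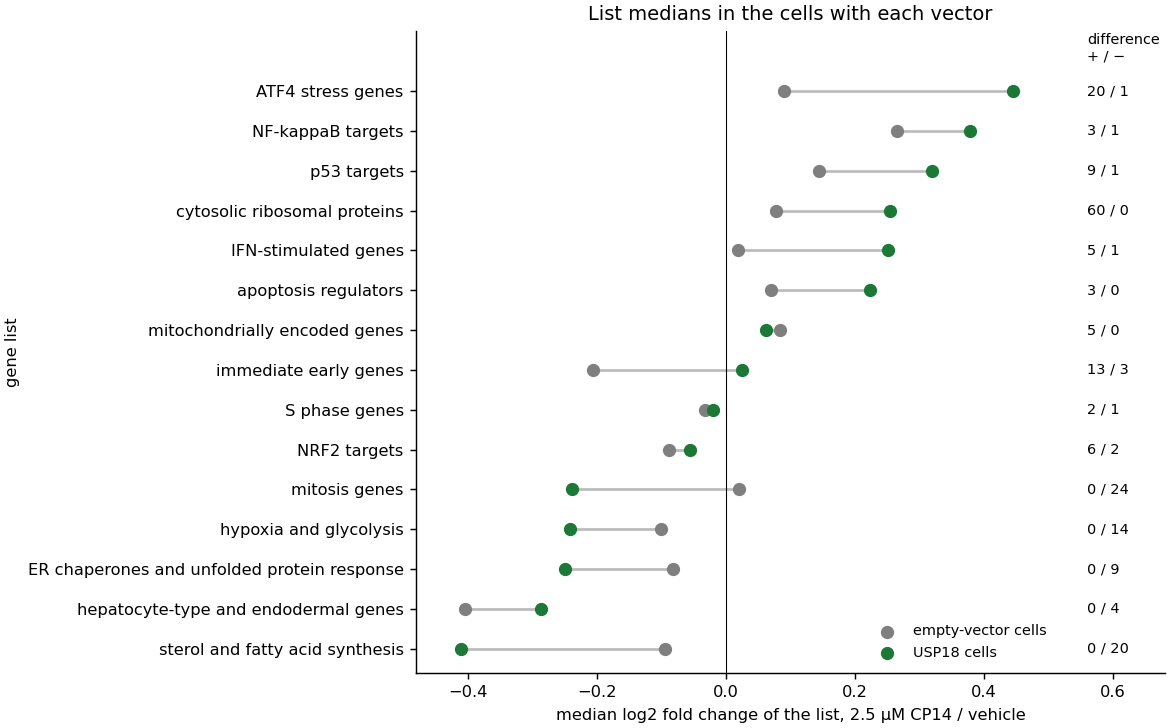
Median log2 fold change of 15 gene lists, 2.5 µM CP14 against vehicle, in USP18 cells (green) and empty-vector cells (grey), with the numbers of members whose interaction had an adjusted p under 0.05 and was positive or negative (a positive value means a higher fold change in USP18 cells). The ATF4 list is at 0.45 and 0.09, the mitosis list at -0.24 and 0.02.

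The dose series in USP18 cells asked where 2.5 µM lies between 1 and 5 µM. Against vehicle, 1 µM changed 38 genes (0.242%) and 5 µM 2758 (17.5%), each sharing its vehicle libraries with the 2.5 µM comparison. Directly compared, 194 genes (1.23%) differed between 2.5 and 1 µM, 142 higher and 52 lower at 2.5 µM, and 1894 (12.0%) between 5 and 2.5 µM, 807 higher and 1087 lower at 5 µM. Both of these comparisons use the 2.5 µM libraries. INSL4 fell with each step, from a mean of 196 CPM to 147, 53.1 and 12.3 CPM at 1, 2.5 and 5 µM (-1.47, adjusted p = 1.1e-07 for 2.5 against 1 µM and -2.10, adjusted p = 2.1e-10 for 5 against 2.5 µM). RASD1 had means of 14.9, 6.97, 1.91 and 1.15 CPM, and most of its fall was reached by 2.5 µM (-1.86, adjusted p = 4.4e-06 from 1 µM). NR4A3 was lowest at 2.5 µM, with 4.86, 7.23 and 7.58 CPM at 5 µM, above all 2.5 µM libraries (1.56, adjusted p = 1.8e-06). SCNN1G had 0 counts in each 5 µM library, at least 44.6-fold below 2.5 µM, and CLDN2, a claudin of leaky epithelia, went from a mean of 35.2 to 1.88 CPM (-4.22, adjusted p = 1.6e-13), as did UGT2B11, a glucuronosyltransferase (-4.09, adjusted p = 1.5e-07), from 2.64 to 0.151 CPM. The largest rises from 2.5 to 5 µM that the naming rule given below selects were in IL1RL1, the receptor of interleukin 33 (at least 18.4-fold), ATP6V0D2, a proton pump subunit (4.57, adjusted p = 6.2e-07), and CGB8, a chorionic gonadotropin chain (4.50, adjusted p = 1.1e-05). THSD8 was lower at 2.5 than at 1 µM (-2.57, adjusted p = 0.03), although near its vehicle mean, with 1.55, 0 and 0.594 CPM against 7.04, 2.54 and 3.18 CPM.

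Among the rises, GREM1 went from means of 0.892 to 2.46, 10.1 and 86.3 CPM (2.06, adjusted p = 1.5e-05 for 2.5 against 1 µM, 3.09, adjusted p = 1.1e-11 for 5 against 2.5 µM). LAMP3 was near its vehicle level at 1 µM (1.93 CPM) and at 38.3 CPM at 5 µM, with 2.56, adjusted p = 1.4e-06 for 2.5 against 1 µM. ASNS had already reached 244 CPM at 2.5 µM and was at 245 CPM at 5 µM, a difference of 0.01 (SE 0.08, adjusted p = 0.91), whereas TRIB3 went on from 133 to 402 CPM (1.59, adjusted p = 7.3e-10). The list medians for 2.5 against 1 µM were 0.42 for ATF4 genes, -0.36 for sterol genes and -0.33 for mitosis genes, where all genes had 0.01. S phase genes had a median of -0.17 in that comparison, with 0 of 41 higher and 23 lower at an adjusted p under 0.05. Of all 15732 genes, 1922 were higher and 1921 lower there. At 1 µM against vehicle, S phase genes had a median of 0.15, with 14 higher and 1 lower. Mitosis genes had 0.08, with 5 higher and 0 lower, where 653 of all genes were higher and 705 lower. For 5 against 2.5 µM the medians were -1.53 for mitosis and -1.64 for S phase genes, with 36 of 36 and 41 of 41 lower at an adjusted p under 0.05, where 32.4% of all genes were lower and the median was -0.01. The S phase list, mixed at 2.5 µM against vehicle, was thus lower throughout at 5 than at 2.5 µM. Ribosomal protein genes took 6.56, 6.49 and 6.38% of counts at 1 µM and 8.82, 8.55 and 8.72% at 5 µM, on either side of the 2.5 µM libraries.

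CP18, which the labels also give by its code alone, was given at the same dose and time. At 2.5 µM in USP18 cells, CP14 and CP18 differed in 211 of 15375 genes (1.37%), 157 higher and 54 lower with CP14. LAMP3 was at 1.96, 1.80 and 1.03 CPM with CP18 (2.87, adjusted p = 2.5e-06 for CP14 against CP18), TNFRSF9 at 0.309, 0.464 and 0.331 CPM (2.66, adjusted p = 4.6e-05) and TM6SF1 at 0.722, 0.697 and 0.620 CPM (2.72, adjusted p = 2.2e-05). These were the largest rises of the direct comparison that the naming rule selects. For the falling genes CA9 (5.57, 6.50 and 5.00 CPM, -2.14, adjusted p = 6.3e-06) and RASD1 (4.48, 6.68 and 5.16 CPM, -1.51, adjusted p = 1.9e-05), CP14 gave the lower levels, with no overlap between its libraries and those of CP18. AC012254.2, scarce and without a known role, was also lower (-1.71, adjusted p = 0.044). ATF4 genes had a median difference of 0.46, with 29 higher and 2 lower with CP14 at an adjusted p under 0.05. Of all genes, 13.7% were higher and 14.6% lower. Mitosis genes had -0.37, with 0 higher and 34 lower, and sterol genes -0.39, with 0 higher and 26 lower. CP18 against vehicle gave medians of 0.01 for ATF4 genes (0 higher, 2 lower) and 0.11 for mitosis genes (6 higher, 0 lower). Sterol genes had -0.04 (2 higher, 1 lower), where 848 of all 15375 genes were higher and 736 lower.

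Some called genes share sequence with others, so that their counts depend on how reads were assigned. The readthrough transcript TMEM189-UBE2V1 went from 19, 58 and 48 counts to 0, 0 and 0, at least 13.8-fold lower, and its adjusted p of 0.026 passed 0.05 in 3 of the 6 leave-one-out fits, up to 0.069. HSPE1-MOB4, another readthrough, fell from 37, 40 and 22 to 0, 7 and 8 counts (-2.70, adjusted p = 0.0015). UTP14C, a retrogene copy of UTP14A, was at 0, 4.29 and 2.44 CPM with vehicle and 11.3, 8.19 and 12.0 CPM with CP14 (2.21, adjusted p = 0.0011; 0.098 with DESeq2). It is the vehicle group that stands apart there, since the empty-vector libraries held 5.42, 14.8 and 11.5 CPM with vehicle and 10.5, 9.10 and 10.2 CPM with CP14. Of 13 tested small non-coding RNA identifiers, of which RMRP has 2 and whose RNAs carry no poly(A) tail, the signal recognition particle RNAs RN7SL1 (20.6, 40.7 and 21.4 CPM with vehicle and 76.4, 105 and 61.2 CPM with CP14) and RN7SL2 (15.9, 36.9 and 15.1 and 94.3, 124 and 62.5 CPM) were higher, in a list with a median of -0.47. RN7SL1 was not called in 3 of the 6 leave-one-out fits (adjusted p up to 0.06), and 1 µM CP14 gave 58.2, 149 and 329 CPM, so that these RNAs also varied between other groups. In empty-vector cells 9 of the 13 were lower (median -2.76), and all small non-coding RNAs made up 0.0283, 0.0666 and 0.00845% of counts in the vehicle libraries there and 0.00861, 0.00749 and 0.0104% in the treated ones; the part of library preparation in this was not tested.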

How the data were processed

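Per the labels, Cutadapt 1.18 trimmed the reads, STAR 2.7.0f aligned them to hg38 and RSEM 1.3.1 counted them, while the methods give another RSEM version and name human GENCODE v30 for mapping but a mouse GENCODE file for counting; the identifiers are human. The authors deposited expected counts per gene, unscaled between libraries, of which 94.0% are exactly whole, zeros included, and 83.3% of those above 0. Counts were rounded and tested in R 4.3.3 with edgeR 4.0.16 (TMM, filterByExpr at 10 counts and 15 in total, and the quasi-likelihood test, with p adjusted by Benjamini and Hochberg over all genes tested), from which every p in the text comes unless DESeq2 1.42.0 is named. Vehicle and 2.5 µM CP14 with either vector made 1 fit of 12 libraries, the CP14 doses in USP18 cells another of 12, and the comparison with CP18 1 of 9. Tables and figures were made in Python 3.11.15 with pandas 2.3.3 and matplotlib 3.10.9. Coordinates are from GENCODE v44 (GRCh38), which matched 15765 of 15827 genes. Totals ran from 16673228 to 25609062 counts over the 21 libraries used. The procedure was tested on simulated data.

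Named genes follow a rule. Among called genes with groups that stay apart and average at least 1 CPM, these are the 12 largest changes, 5 smallest p and 5 most abundant in each direction. From each gene list come called members and up to 4 with the largest tested changes, then 5 genes for each kind of interaction and the 3 largest changes each way of the dose and compound comparisons. Some genes that the rule gives are not reported here. Members and lists were chosen with earlier results of these data known. Alternatives were RLE size factors, no filter, at least 1 CPM, a replicate block, DESeq2, only the 2 groups compared, all 54 libraries, and leaving out each library.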

Additional observations from a re-analysis of the deposited data

Results flagged for a closer look

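The response to 2.5 µM CP14 differed between USP18 and empty-vector cells in 1266 genes (802 to 1544 in leave-one-out fits). These are genes with an interaction of treatment and vector at an adjusted p under 0.05. The values are differences in log2 fold change, USP18 minus empty-vector cells. Genes named in the text with a rise in the fitted values of both, and the larger one in USP18 cells, were AC008581.2 (2.75), LAMP3 (1.95), LCN2 (1.91), BEX2 (1.62), INSYN2B (1.32), CSTA (1.27), ETS1 (1.05), TRIB3 (0.97), STC2 (0.92), PCK2 (0.89), ALDH1L2 (0.87), PLAU (0.82), ZFAS1 (0.73), COL5A1 (0.64), MT-ND2 (0.62), MT-ND1 (0.61), CYP1B1 (0.60), ASNS (0.52), TUBB2B (0.51), KRT80 (0.48), EGFR (0.45), SQSTM1 (0.44), BCAT1 (0.42), RPL12 (0.42), MT-ND4L (0.38), KRT7 (0.37), ABCC3 (0.36), TRIM25 (0.33), ERAP1 (0.32), RPS18 (0.30), TNFAIP2 (0.29), RPL26 (0.28), UHRF1 (0.21) and HSPA1A (0.18). Those with a fall in both, and the larger one in USP18 cells, were CCNG1 (-0.16), GLA (-0.23), SCD (-0.28), SLC38A2 (-0.28), PTTG1 (-0.29), PDIA4 (-0.32), CPS1 (-0.34), PLK1 (-0.37), GADD45B (-0.37), CALR (-0.38), FGA (-0.39), AURKA (-0.39), XBP1 (-0.41), FGB (-0.44), OAS1 (-0.48), ACAT2 (-0.54), H19 (-0.61), STARD4 (-0.62), NR4A2 (-0.70), SLC2A3 (-0.73), TENT5A (-0.79), SLC12A2 (-0.81), PTGS2 (-0.84), NEB (-0.88), INSL4 (-0.96), NR4A3 (-1.10) and CA9 (-1.65). Opposite fitted signs were found for RN7SL2 (3.47), RN7SL1 (3.11), UTP14C (2.29), EGR1 (0.89), CXCL2 (0.86), MT-ND6 (0.79), PPP1R15A (0.73), HERC5 (0.72), SESN2 (0.67), JUNB (0.61), TSKU (0.53), MT2A (0.46), IER2 (0.42), NFKBIA (0.36), TUBB (-0.16), TUBA1B (-0.19), HMMR (-0.22), TUBB4B (-0.23), TUBG1 (-0.24), DUSP4 (-0.24), CHORDC1 (-0.30), SEMA3C (-0.40), ECT2 (-0.47) and THBS1 (-0.57). For RN7SL1 and RN7SL2 this goes with lower small non-coding RNA in empty-vector cells, 9 of 13 tested, whose vehicle libraries there differed widely in these RNAs (0.0283, 0.0666 and 0.00845% of counts). The change was in the same direction and smaller in USP18 cells for TUBA1A (-0.19). Of these 86 genes, 28 lost the interaction in at least 1 of the 12 leave-one-out fits (1 library absent in each), and 11 under another alternative. The fits that lost it numbered 10 for CXCL2, INSYN2B, TRIM25; 9 for CCNG1, FGB, HMMR; 8 for BCAT1, ERAP1, FGA, NR4A2, TUBB; 7 for PTTG1, SCD, SESN2, TUBA1A; 6 for GLA, LAMP3, MT-ND4L; 5 for TUBG1, UHRF1; 4 for TUBA1B; 3 for GADD45B, UTP14C; 2 for HSPA1A, MT2A, TUBB2B; 1 for CPS1, TNFAIP2. The other alternatives ended it for CXCL2, TRIM25, CCNG1, FGB, FGA, SCD, MT-ND4L, UTP14C, HSPA1A, MT2A and AC008581.2. Over all alternatives tried, the adjusted p reached 0.40 for UTP14C, 0.32 for AC008581.2 and 0.26 for HSPA1A. Each vector is treated as 1 engineered population, so that its other differences and USP18 itself cannot be told apart.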

How the results depend on the processing

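The number of genes called with 2.5 µM CP14 in USP18 cells was 315 and stayed within 1.5 times of that under RLE size factors, no filter, DESeq2, the 2 groups alone, all 54 libraries and a replicate block (309), and was 186 with a filter of at least 1 CPM, which tests fewer of the scarce genes. With a replicate block, the interaction gave 1233 genes, empty-vector cells 77, 2.5 against 1 µM 182, 5 against 2.5 µM 1888 and CP14 against CP18 194. Without a filter, empty-vector cells gave 158 genes, 2.5 against 1 µM 322 and CP14 against CP18 323. With at least 1 CPM these were 48, 116 and 117, and DESeq2 gave 35 in empty-vector cells; the cause was not tested. Leaving out 1 library at a time gave 260 to 369 genes in USP18 cells, 802 to 1544 for the interaction, 47 to 103 in empty-vector cells, 142 to 240 for 2.5 against 1 µM, 1828 to 2097 for 5 against 2.5 µM and 169 to 248 for CP14 against CP18. The interaction fell to 819 without vehicle replicate 1 and 802 without vehicle replicate 3 of USP18 cells, and the empty-vector count to 47 without vehicle replicate 1. Over the genes named by the rule, no tested value turned its sign while called. List medians changed sign over the alternatives for S phase, immediate early, tubulin, alveolar type II, leukocyte, small non-coding and mitochondrially encoded genes, and the squamous median reached 0. With 3 libraries a group, genes near 3 counts per library have bounds only.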
